A study of Mus musculus with 4 samples.

Results

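The subject is the response of wild-type G1ER cells to estradiol, read as the library of cells after 24 h of beta-estradiol (100 nM) against the library of cells at 0 h. Both libraries were chosen by their titles, and they are 2 of the 4 libraries of the series. The other two come from a Chd7-/- derivative of the same line at 24 h and at 0 h, and they enter here only as values beside the wild-type ones. G1ER cells are mouse erythroblasts without a working Gata1 gene, into which GATA1 fused to the ligand-binding part of the estrogen receptor was put, so that estradiol switches the fusion protein on. Its cells, in all 4 libraries, lack endogenous GATA1 and were grown with EPO (2 U/mL) and SCF-conditioned medium (0.6%). The treatment label reads estradiol for every library, those titled 0 h included, so the time was taken from the title. G1ER is 1 clonal line, and each condition holds 1 library of ribosome-depleted total RNA, without replicates. No test of the wild-type response alone is therefore possible, and each difference below is a difference between libraries.

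GATA1 is the transcription factor that takes an erythroid progenitor into terminal maturation. In this line it is known to turn on the globin and heme genes and to switch off Gata2, the related factor of earlier progenitors, in a hand-over of shared sites called the GATA switch. A maturing erythroblast fills with hemoglobin, builds the spectrin skeleton under its membrane, loses early surface receptors and finally stops dividing. Estradiol-treated G1ER cells go through the first steps of that course in culture.

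The table lists 23936 gene rows in FPKM (fragments scaled for transcript length and for the mapped depth of the library), and 8964 of them (37.4%) averaged at least 1 FPKM over the 4 libraries. These 8964 genes are called measured below, and a difference is given as the log2 ratio of FPKM + 1 at 24 h over 0 h, which understates the change of low genes. At 24 h, 167 measured genes were at least 2-fold higher than at 0 h (1.86%) and 95 were at least 2-fold lower (1.06%). Each list count below is to be read beside these shares, and a list with few or none past 2-fold lies near them. The wild-type libraries were otherwise alike: 7957 genes (88.8%) differed by less than 1.5-fold, and the median log2 ratio was -0.11. Large differences lay mainly on the higher side, with 45 genes at least 4-fold higher and 10 at least 4-fold lower.

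Of the genes past 2-fold, 63.7% were higher at 24 h, and this split moved with the scaling. With both libraries brought to the same sum (TPM), 270 genes were higher and 48 lower. With that done after leaving out small RNA and predicted loci, 173 were higher and 151 lower, and with the median gene set to no change, 209 were higher and 58 lower. Both equal-sum settings raise the values before the same 1 is added, so low genes also move because that 1 weighs less. With small RNA and predicted loci left out of the sum, Slc4a1 went from 4.29 to 5.03 and Erg from -1.75 to -2.22, beside 4.59 to 4.53 for Hbb-b1. The part of this in the changed counts was not tested. The deposited values sum to 780536 FPKM at 24 h and 923195 FPKM at 0 h, and 1 small nucleolar RNA, Snord47, held 7.99% of the sum at 24 h and 27.0% of it at 0 h. Small RNA and predicted loci are left out of the named genes, which leaves 141 higher and 80 lower genes.

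The rule of 2-fold cut through a continuous range. Just inside it, Lzts1 had 7.00 FPKM at 24 h and 2.97 FPKM at 0 h (log2 ratio 1.01), and Rasa1 had 11.7 FPKM at 24 h and 24.6 FPKM at 0 h (-1.01). Just outside it, Soat2 had 11.01 FPKM at 24 h and 5.04 FPKM at 0 h (0.99), and Spn had 44.6 FPKM at 24 h and 89.8 FPKM at 0 h (-0.99). A gene listed at 0 need not be silent, since Hmgcs1 and Insig1, sterol genes that dividing cells use, are at 0 in all 4 libraries. Chd7 is also listed at 0 in all 4, so the table cannot check the knockout. Depth read from the steps of low values was about 18200000 fragments at 24 h and 16400000 at 0 h.

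**Figure D1:**
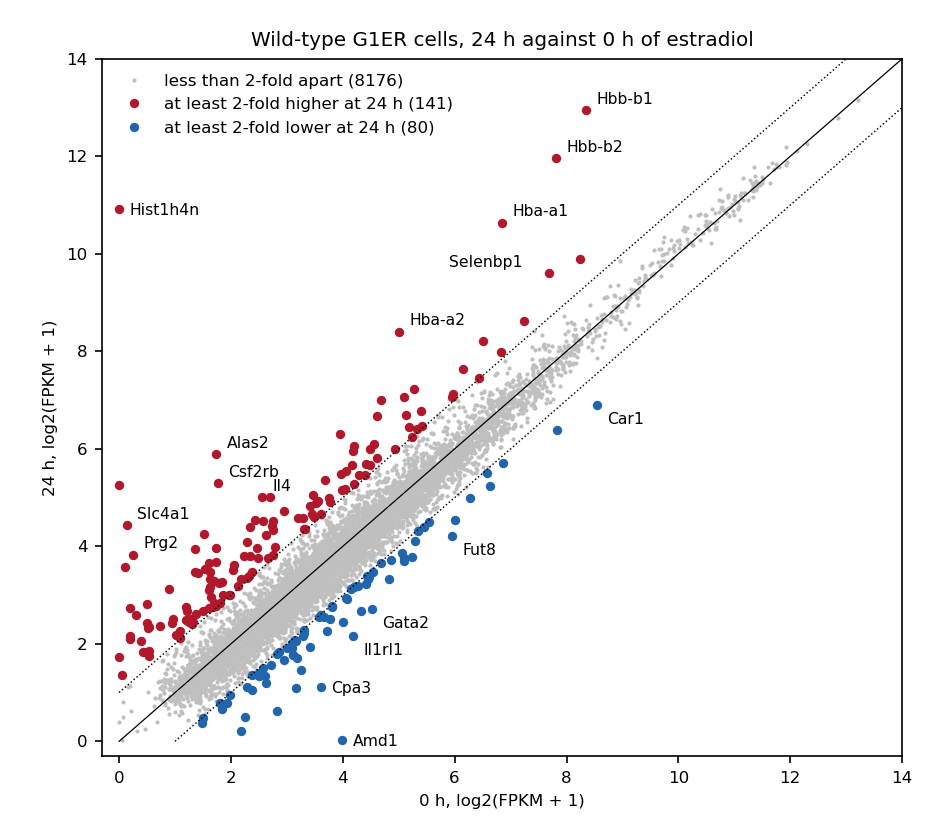
Each point is 1 measured gene of the wild-type cells, small RNA and predicted loci left out, with its log2(FPKM + 1) at 0 h on the horizontal axis and at 24 h on the vertical axis; the solid line marks equal values and the dotted lines a 2-fold difference. The 141 red genes and 80 blue genes lie outside the dotted lines, and the globins stand farthest up among the abundant genes. Hist1h4n, at 1942 FPKM at 24 h and listed near 0 at 0 h, belongs to the many-copy histone genes.

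The labelled cell type was checked first. Gata1, the gene replaced by the fusion, read 38.2 FPKM at 24 h and 31.1 FPKM at 0 h, and these counts cannot separate the fusion from an endogenous transcript. Klf1, the erythroid Krüppel-like factor, read 99.2 FPKM at 24 h and 54.0 FPKM at 0 h, and Tfrc, the transferrin receptor through which erythroblasts take up iron, read 386 FPKM at 24 h and 270 FPKM at 0 h. Both libraries were erythroid by these markers and by Hbb-b1, at 326 FPKM at 0 h, although Alas2 was low at 0 h (2.32 FPKM). Of other lineages, 8 mast cell, basophil and eosinophil markers were measured. So were 7 megakaryocyte and platelet and 5 granulocyte and macrophage markers, and all are described below. None of the 16 lymphoid markers was measured, and 13 of them were at 0 in both libraries.

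Hemoglobin genes gave the largest response. The globin list had 11 gene rows, and the 6 of them that were measured were all at least 2-fold higher at 24 h. Their median log2 ratio was 3.60, against -0.11 over all measured genes. The filter can let in a chain by its 24 h values alone, so this share rests in part on the filter. With no filter, 7 of the 11 were at least 2-fold higher. The list's median against all genes was then 2.34, beside 3.71 with the filter. Hbb-b1, the adult major beta chain, read 7865 FPKM at 24 h and 326 FPKM at 0 h (log2 ratio 4.59). It stood 2nd of 19448 ranked genes at 24 h, behind the translation factor Eef1a1, and 166th at 0 h. Hbb-b2, the minor beta chain, read 3991 FPKM at 24 h and 223 FPKM at 0 h (4.16), a rank of 7 at 24 h and 255 at 0 h. The beta chains alone had moved in among the ribosomal protein genes, which filled most of the top ranks at both times.

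The alpha chains followed at lower levels. Hba-a1 read 1594 FPKM at 24 h and 114 FPKM at 0 h (log2 ratio 3.79), and Hba-a2 read 337 FPKM at 24 h and 30.9 FPKM at 0 h (3.40). Their sum was 1931 FPKM at 24 h and 145 FPKM at 0 h, beside 11856 FPKM at 24 h and 549 FPKM at 0 h for both beta chains. The ratio of beta to alpha FPKM was thus 6.14 at 24 h and 3.77 at 0 h. Globin copies are near-identical, so the division of reads between Hba-a1 and Hba-a2, and between Hbb-b1 and Hbb-b2, is uncertain. Embryonic and theta chains stayed low. Hbb-bh1, an embryonic beta-like chain, had 5.62 FPKM at 24 h and 0.15 FPKM at 0 h. Hbq1b, a theta chain, had 10.0 FPKM at 24 h and 1.66 FPKM at 0 h, and Hba-x, the embryonic zeta chain, was below the filter.

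The 300 bases around the Hba-a1 start, 250 before it and 50 after it, are shown because this promoter carries both of the letter groups searched for below. The window is chr11:32283422-32283721 on the plus strand of GRCm38.p6 (RefSeq), written 5′ to 3′ in the sense of the gene, and the capitals mark a GATA hexamer 183 bases before the start and CCACCC, letters of the kind bound by KLF1, 61 bases before it. Over the 297 bases that can be laid side by side, the Hba-a2 window is identical to it in 297.
Hba-a1: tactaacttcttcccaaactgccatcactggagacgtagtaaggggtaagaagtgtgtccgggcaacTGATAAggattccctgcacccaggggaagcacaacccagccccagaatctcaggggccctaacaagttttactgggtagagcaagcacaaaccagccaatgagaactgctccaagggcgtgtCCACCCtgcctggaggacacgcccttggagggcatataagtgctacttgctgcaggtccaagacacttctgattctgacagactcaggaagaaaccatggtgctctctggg

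Heme is made in a chain of steps from glycine and succinyl-CoA, and its genes moved as a graded group. Of 9 measured synthesis enzymes, 4 were at least 2-fold higher at 24 h and none lower, with a median log2 ratio of 0.98. Alas2, the erythroid form of the first and rate-limiting enzyme, read 58.3 FPKM at 24 h and 2.32 FPKM at 0 h (4.16). Its housekeeping counterpart Alas1 read 6.01 FPKM at 24 h and 7.96 FPKM at 0 h (-0.35), the one enzyme of the list with a ratio below 0. Alad, which joins the first product into a pyrrole, read 66.0 FPKM at 24 h and 17.4 FPKM at 0 h (1.87). Ppox, a late enzyme of the chain, read 24.3 FPKM at 24 h and 9.87 FPKM at 0 h (1.22). Cpox, already abundant at 0 h, differed less, with 339 FPKM at 24 h and 171 FPKM at 0 h (0.98). Fech, which inserts the iron, was 0.71 higher on the log2 scale and did not reach 2-fold.

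The Alas2 window is shown as the second promoter of a strongly responding gene, at chrX:150547167-150547466 on the plus strand of GRCm38.p6 (RefSeq), 5′ to 3′. The capitals mark a GATA hexamer on the opposite strand 86 bases before the start and 3 overlapping copies of CCACCC, also on the opposite strand, at 40, 35 and 30 bases before it.
Alas2: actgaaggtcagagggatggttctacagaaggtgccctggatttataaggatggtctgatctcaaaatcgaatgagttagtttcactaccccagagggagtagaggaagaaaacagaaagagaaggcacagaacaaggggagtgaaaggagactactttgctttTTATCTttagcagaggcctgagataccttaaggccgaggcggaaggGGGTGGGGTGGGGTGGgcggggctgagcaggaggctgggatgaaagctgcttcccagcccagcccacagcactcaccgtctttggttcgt

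Heme and iron transport genes differed in part. Of 13 measured genes for heme and mitochondrial iron transport, 3 were at least 2-fold higher: Abcb10, a carrier of the inner mitochondrial membrane, read 128 FPKM at 24 h and 24.8 FPKM at 0 h (log2 ratio 2.32). Tmem14c, which moves a porphyrin intermediate into the matrix, read 294 FPKM at 24 h and 90.1 FPKM at 0 h (1.69). Slc25a37, mitoferrin-1, the carrier that brings iron into the mitochondria of red cell precursors, read 13.0 FPKM at 24 h and 3.72 FPKM at 0 h (1.56), while its widely used relative Slc25a28 read 8.82 FPKM at 24 h and 10.7 FPKM at 0 h. Of the 21 measured genes of iron handling in the rest of the cell none passed 2-fold, with a median log2 ratio of -0.05 and 13 above the median of all genes; 2 of them, Ncoa4 and Aco1, passed it under TPM scaling and with the median gene set to no change. Ncoa4, which delivers ferritin for breakdown, was the highest at 0.98, and Tfr2, a transferrin sensor, the lowest at -0.65. The ferritin subunits went apart, with Ftl1 at 1472 FPKM at 24 h and 1132 FPKM at 0 h, and Fth1 at 380 FPKM at 24 h and 558 FPKM at 0 h.

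The membrane skeleton formed a further erythroid group. Of 15 measured genes, 5 were at least 2-fold higher at 24 h and none lower, and the median log2 ratio was 0.86. Slc4a1 encodes band 3, the anion exchanger that anchors the skeleton, and it read 20.6 FPKM at 24 h and 0.10 FPKM at 0 h (4.29). Ank1, the ankyrin that ties band 3 to spectrin, read 21.9 FPKM at 24 h and 4.93 FPKM at 0 h (1.95). Sptb, the beta spectrin of red cells, read 132 FPKM at 24 h and 33.2 FPKM at 0 h (1.96). The largest fold thus fell on the gene that was nearly unread at 0 h. Dmtn (dematin) read 4.99 FPKM at 24 h and 0.24 FPKM at 0 h (2.28), and Epb4.2, protein 4.2, stayed near the filter at 1.23 FPKM at 24 h and 1.81 FPKM at 0 h.

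Blood group and surface proteins were higher in part. Of 20 measured genes, 8 were at least 2-fold higher at 24 h and none lower (median log2 ratio 0.53). Rhd, the Rh antigen, read 40.3 FPKM at 24 h and 11.9 FPKM at 0 h (1.68), and Icam4, an adhesion molecule that binds macrophages, 32.1 FPKM at 24 h and 10.1 FPKM at 0 h (1.58). Gypc, Art4, Kel, Cldn13 and Tspan33 lay between 1.37 and 1.52. At the other end stood Slc29a1, a nucleoside transporter, with 40.5 FPKM at 24 h and 62.8 FPKM at 0 h (-0.62), and Cd44, an adhesion receptor that falls during maturation of erythroblasts in mouse marrow (-0.51).

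Carbonic anhydrases, which interconvert carbon dioxide and bicarbonate, did not move together. Car2 read 554 FPKM at 24 h and 424 FPKM at 0 h (0.38), and Car1, an abundant enzyme of mature red cells, read 118 FPKM at 24 h and 372 FPKM at 0 h (-1.64). Car1 was the gene of highest 0 h level among the 15 largest decreases, and it ranked 503rd at 24 h and 149th at 0 h. Among the other late erythroid genes, 3 of 10 were at least 2-fold higher, led by Hebp1, a heme-binding protein, with 77.8 FPKM at 24 h and 14.5 FPKM at 0 h (2.35).

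**Figure D2:**
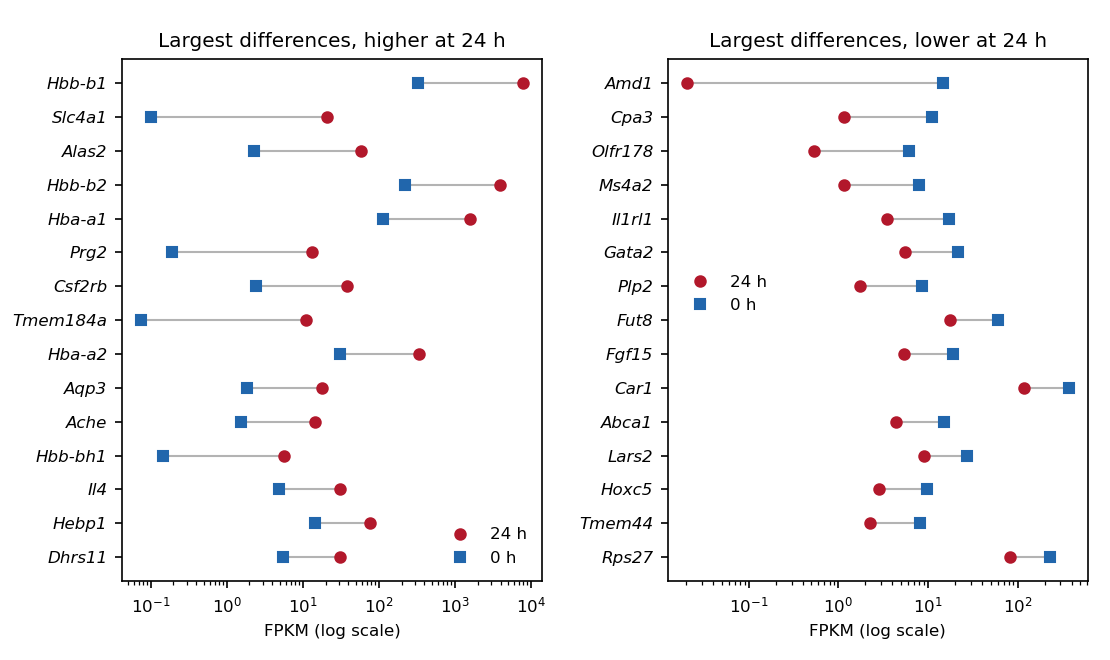
FPKM at 24 h (red circles) and at 0 h (blue squares) in wild-type cells, on log axes, for the 15 genes most higher (left) and the 15 most lower (right) at 24 h by log2 ratio among genes whose higher library read 5 FPKM or more. The main alpha and beta globins lie at 337 FPKM and above at 24 h, whereas most genes on the right lie under 30 FPKM at 0 h, Rps27, Car1 and Fut8 being the exceptions.

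Several strongly higher genes have no place in hemoglobin synthesis. Csf2rb, the shared beta chain of the IL-3, GM-CSF and IL-5 receptors, read 38.2 FPKM at 24 h and 2.41 FPKM at 0 h (log2 ratio 3.52), and its neighbour and mouse-specific copy Csf2rb2 read 6.04 FPKM at 24 h and 0.42 FPKM at 0 h (2.31). Aqp3, a water and glycerol channel, read 17.96 FPKM at 24 h and 1.88 FPKM at 0 h (2.72). Ache, acetylcholinesterase, an enzyme also found on the red cell membrane, read 14.4 FPKM at 24 h and 1.56 FPKM at 0 h (2.59). All of these read 2.41 FPKM or less at 0 h. Il4, a cytokine known from T helper cells, mast cells and basophils, read 31.1 FPKM at 24 h and 4.896 FPKM at 0 h (2.44). Tmem184a, a membrane protein, read 11.01 FPKM at 24 h and 0.08 FPKM at 0 h (3.48), and Dhrs11, a short-chain dehydrogenase, 31.4 FPKM at 24 h and 5.45 FPKM at 0 h (2.33).

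Among the genes abundant at both times, Selenbp1, a selenium-binding protein and methanethiol oxidase, read 779 FPKM at 24 h and 206 FPKM at 0 h (1.91), and its close copy Selenbp2 149 FPKM at 24 h and 37.9 FPKM at 0 h (1.95), a pair that can share reads. Prdx6, a peroxiredoxin, read 392 FPKM at 24 h and 149 FPKM at 0 h (1.39), the one gene past 2-fold of 22 measured antioxidant enzymes. Prdx2, the abundant peroxiredoxin of red cells, came close with 928 FPKM at 24 h and 495 FPKM at 0 h (0.90). Gmpr, which turns GMP into IMP, read 199 FPKM at 24 h and 70.3 FPKM at 0 h (1.49).

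Cytokine signalling was mixed. Of 28 measured receptors and signalling genes, 5 were at least 2-fold higher at 24 h and 1 was lower, with a median log2 ratio of -0.04. Besides both Csf2rb genes, the higher ones were Pim1, a kinase gene downstream of STAT5, with 103 FPKM at 24 h and 34.0 FPKM at 0 h (1.56), Fam132b, the hormone erythroferrone, with 4.70 FPKM at 24 h and 0.96 FPKM at 0 h (1.54), and Spry1, an inhibitor of receptor tyrosine kinase signalling (1.07). The lower one was Grb2, an adaptor of growth factor receptors, with 21.5 FPKM at 24 h and 45.6 FPKM at 0 h (-1.05). Epor, the receptor for EPO, read 32.1 FPKM at 24 h and 21.0 FPKM at 0 h, whereas Kit, the receptor for SCF, read 20.4 FPKM at 24 h and 39.4 FPKM at 0 h (0.59 and -0.92).

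Gata2 gave the reading of the GATA switch. It read 5.53 FPKM at 24 h and 21.9 FPKM at 0 h, a log2 ratio of -1.81. Of 12 measured progenitor genes, 3 were at least 2-fold lower at 24 h and none higher, and 9 lay below the median of all genes (median log2 ratio -0.75, against -0.11). Under TPM scaling and with the median gene set to no change 2 of them, Gata2 and Erg, were lower by that rule and 1, Spi1, was higher. Erg, an ETS factor of stem and progenitor cells, read 0.42 FPKM at 24 h and 3.77 FPKM at 0 h (-1.75), and Vim (vimentin), the intermediate filament lost during erythroid maturation in mammals, 3.17 FPKM at 24 h and 7.997 FPKM at 0 h (-1.11). Myb and Myc, drivers of progenitor proliferation, did not reach 2-fold: Myb read 48.2 FPKM at 24 h and 89.4 FPKM at 0 h (-0.88), and Myc 8.60 FPKM at 24 h and 15.2 FPKM at 0 h (-0.76). Spi1, which encodes the myeloid factor PU.1, went the other way with 25.02 FPKM at 24 h and 12.9 FPKM at 0 h (0.90).

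None of the 25 measured transcription factors of the erythroid programme passed 2-fold in the deposited values, as was so for most measured genes. Their median log2 ratio was 0.05, and 18 of the 25 lay above the median of all genes. Under TPM scaling 3 passed 2-fold, Klf1, Bach1 and Lmo2, all higher at 24 h. Bach1, a heme-sensing repressor, was the highest (0.88), followed by Klf1 (0.87), and by Lmo2 with 61.0 FPKM at 24 h and 33.2 FPKM at 0 h (0.86). Zfpm1, the GATA1 cofactor FOG1, read 58.8 FPKM at 24 h and 34.6 FPKM at 0 h (0.75). Tal1, which binds beside GATA1 at erythroid genes, read 36.2 FPKM at 24 h and 40.4 FPKM at 0 h (-0.15), and Stat5a was the lowest (-0.64). Gfi1b, a repressor required for erythroid development, read 129 FPKM at 24 h and 96.0 FPKM at 0 h, and none of the 11 measured genes of its corepressor list passed 2-fold. Klf10, outside the erythroid list, was the one KLF gene past 2-fold, with 4.66 FPKM at 24 h and 12.7 FPKM at 0 h (-1.28).

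**Figure D3:**
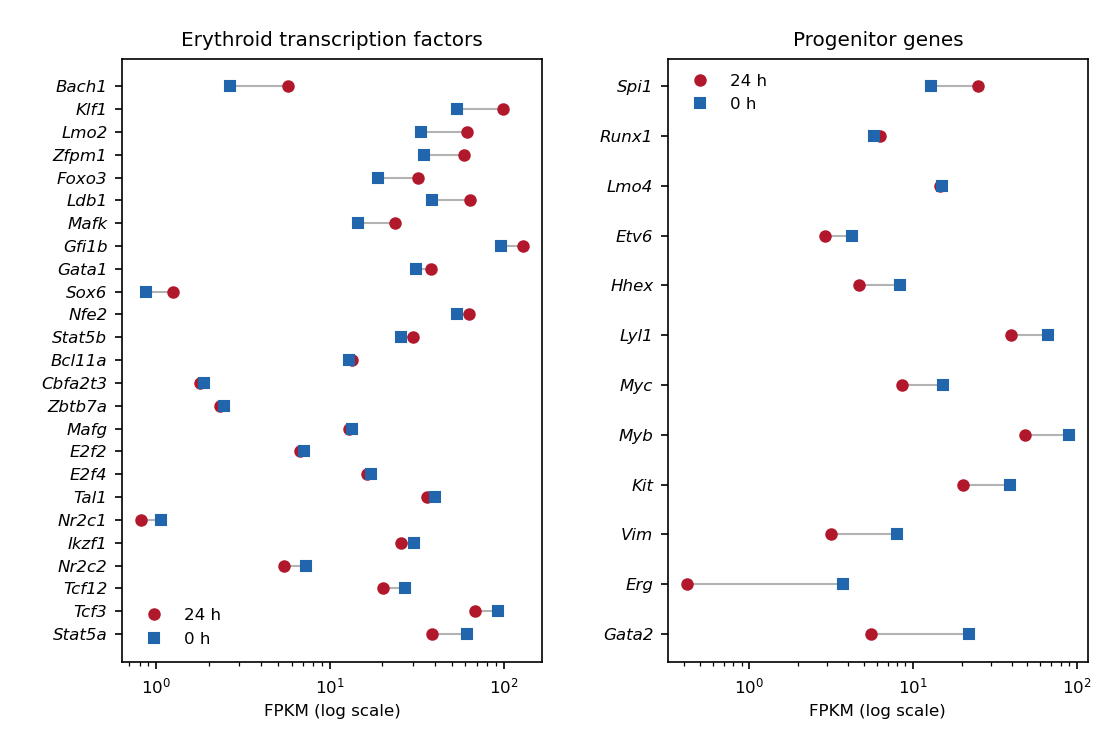
FPKM at 24 h (red circles) and at 0 h (blue squares) in wild-type cells, on log axes, for the 25 measured erythroid transcription factors (left) and the 12 measured progenitor genes (right), each ordered by log2 ratio. On the left every pair of points lies within 2-fold on the FPKM + 1 scale of the deposited values, and on the right Gata2, Erg and Vim are the pairs farther apart than that.

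No measured gene of the CHD, RUNX and CBF list passed 2-fold, and Chd7 itself, at 0 in all 4 libraries, was not measured. Of the 12 measured genes, 0 were higher and 0 lower by that rule, beside 1.86% and 1.06% of all measured genes. Their median log2 ratio was -0.34. Runx1 read 6.32 FPKM at 24 h and 5.76 FPKM at 0 h (0.12). Its partner Cbfb read 18.6 FPKM at 24 h and 31.3 FPKM at 0 h (-0.72), the lowest of the list. Chd4, the remodeller of the NuRD complex, read 83.9 FPKM at 24 h and 122 FPKM at 0 h (-0.54).

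Markers of mast cells, basophils and eosinophils split. Of 8 measured members, 5 were at least 2-fold lower and 2 at least 2-fold higher, with a median log2 ratio of -1.15. Set against all genes the list's median was -1.04, and -0.01 when genes below the filter were let in. Cpa3, the mast cell carboxypeptidase, read 1.16 FPKM at 24 h and 11.2 FPKM at 0 h (-2.49). Ms4a2, the beta chain of the IgE receptor, read 1.14 FPKM at 24 h and 8.01 FPKM at 0 h (-2.07), and Il1rl1, the receptor for IL-33, 3.47 FPKM at 24 h and 17.2 FPKM at 0 h (-2.02). Alox5 and Srgn were the other lower members. Prg2 and Prg3, major basic proteins of eosinophil granules, were the higher ones: Prg2 read 13.2 FPKM at 24 h and 0.19 FPKM at 0 h (3.58), and Prg3 5.38 FPKM at 24 h and 1.31 FPKM at 0 h (1.46). Over all 20 markers the summed level was 30.8 FPKM at 24 h and 50.7 FPKM at 0 h, and the mast cell proteases Mcpt4 and Cma1, the basophil protease Mcpt8 and the mast cell factor Mitf were at 0 in both libraries. The part of such cells in other differences, Il4 and Csf2rb included, was not tested. In bulk RNA, fewer cells of a type and less RNA per cell cannot be told apart.

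Markers of other blood lineages were few among the measured genes. Of 27 megakaryocyte and platelet markers 7 were measured, and Tubb1, the platelet tubulin, was the one past 2-fold, with 1.57 FPKM at 24 h and 0.03 FPKM at 0 h (1.31). The 27 summed to 50.3 FPKM at 24 h and 33.2 FPKM at 0 h. Of 23 granulocyte and macrophage markers 5 were measured, and Cebpe, a factor of granulocytes and eosinophils, was the one past 2-fold, with 7.02 FPKM at 24 h and 2.93 FPKM at 0 h (1.03). Lyz2, the myeloid lysozyme, read 1.08 FPKM at 24 h and 2.81 FPKM at 0 h.

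A pair of promoters of the lower mast cell genes are shown because they hold many GATA hexamers, 5 in Il1rl1 and 3 in Ms4a2. These are the most among the 15 most higher and 15 most lower genes, as far as those had a window. The Il1rl1 window is chr1:40429320-40429619 on the plus strand and the Ms4a2 window chr19:11623670-11623969 on the minus strand of GRCm38.p6 (RefSeq), both 5′ to 3′ in the sense of the gene, with GATA hexamers and CCACCC in capitals on either strand. In Il1rl1 the last hexamer overlaps the single CCACCC match by 1 base.
Il1rl1: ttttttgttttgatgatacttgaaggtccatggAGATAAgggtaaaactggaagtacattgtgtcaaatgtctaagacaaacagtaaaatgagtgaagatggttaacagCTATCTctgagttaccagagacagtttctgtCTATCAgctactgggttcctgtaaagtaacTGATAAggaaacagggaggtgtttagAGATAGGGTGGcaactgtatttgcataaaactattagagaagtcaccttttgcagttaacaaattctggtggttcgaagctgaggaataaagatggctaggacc
Ms4a2: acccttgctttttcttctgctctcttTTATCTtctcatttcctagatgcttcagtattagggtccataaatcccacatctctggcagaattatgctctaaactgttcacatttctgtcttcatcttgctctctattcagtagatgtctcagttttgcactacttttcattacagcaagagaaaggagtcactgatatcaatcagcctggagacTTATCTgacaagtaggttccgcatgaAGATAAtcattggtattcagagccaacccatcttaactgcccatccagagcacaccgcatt

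The remaining large decreases were mostly in genes of low or middle level. Fut8, which adds core fucose to glycoproteins, read 17.5 FPKM at 24 h and 60.7 FPKM at 0 h (-1.74), and Abca1, a cholesterol exporter, 4.43 FPKM at 24 h and 15.1 FPKM at 0 h (-1.57). Fgf15, a secreted growth factor known from the ileum, read 5.34 FPKM at 24 h and 19.1 FPKM at 0 h (-1.66). Hoxc5, a homeobox gene, read 2.81 FPKM at 24 h and 9.71 FPKM at 0 h (-1.49), and Flna, the actin crosslinker filamin A, 22.3 FPKM at 24 h and 62.9 FPKM at 0 h (-1.46). Plp2 read 1.74 FPKM at 24 h and 8.51 FPKM at 0 h (-1.79), Tmem44 2.27 FPKM at 24 h and 8.07 FPKM at 0 h (-1.47), and Olfr178, an olfactory receptor gene, 0.54 FPKM at 24 h and 6.07 FPKM at 0 h (-2.20).

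Amd1, Rps27 and Lars2 need a caution. Amd1, a polyamine enzyme with near-identical copies, headed the decreases with 0.02 FPKM at 24 h and 14.9 FPKM at 0 h (-3.96), and was near 0 in both Chd7-/- libraries. Rps27, a ribosomal protein, read 80.3 FPKM at 24 h and 17.98 FPKM at 0 h in Chd7-/- cells, but 82.1 FPKM at 24 h and 228 FPKM at 0 h in wild-type cells. Lars2, the mitochondrial leucyl-tRNA synthetase, read 130 FPKM at 24 h and 42.6 FPKM at 0 h in Chd7-/- cells, but 9.05 FPKM at 24 h and 27.4 FPKM at 0 h in wild-type cells. In these genes the 2 lines did not share a direction.

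No gene of 3 cell cycle lists passed 2-fold in the deposited values, where 1.86% of all measured genes were higher and 1.06% lower. The lists were 43 DNA replication genes (median log2 ratio -0.05, 25 above the median of all genes), 39 genes of mitosis and cytokinesis (0.04, 31 above it) and 20 cyclins, CDKs and their regulators (0.04, 12 above it). Of the last list 2 genes, Ccnd3 and Cdc25b, were past 2-fold under TPM scaling, and Ccnd3 also with the median gene set to no change. Ccnb1, cyclin B1, read 157 FPKM at 24 h and 153 FPKM at 0 h. The D cyclins were at the ends of their list, Ccnd3 with 99.0 FPKM at 24 h and 50.8 FPKM at 0 h (0.95), and Ccnd2 with 43.2 FPKM at 24 h and 66.1 FPKM at 0 h (-0.60). Of 21 antiproliferative genes, 3 were at least 2-fold higher and none lower (median 0.16): Gadd45g, a stress-induced growth arrest gene, read 21.9 FPKM at 24 h and 5.76 FPKM at 0 h (1.76), Btg2 3.19 FPKM at 24 h and 0.31 FPKM at 0 h (1.68), and Ccng2 29.2 FPKM at 24 h and 12.6 FPKM at 0 h (1.15). Cdkn1b, the inhibitor p27, read 23.2 FPKM at 24 h and 12.5 FPKM at 0 h (0.84).

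Ribosome biogenesis factors lay mostly below the median of all genes, by small amounts. Of 43 measured factors 1 passed 2-fold, Rrp1b, with 8.04 FPKM at 24 h and 17.5 FPKM at 0 h (-1.03). The median log2 ratio was -0.50, and 39 of the 43 lay below the median of all genes. Under TPM scaling 38 did, and 8 of the 43 then had a ratio above 0, against 0 of 43 in the deposited values. Polr1b, a subunit of RNA polymerase I, read 16.4 FPKM at 24 h and 31.5 FPKM at 0 h (-0.90), and Ddx21, a helicase of rRNA processing, 36.5 FPKM at 24 h and 64.7 FPKM at 0 h (-0.81). Fbl, the nucleolar methyltransferase fibrillarin, read 110 FPKM at 24 h and 112 FPKM at 0 h. Of the 80 ribosomal proteins themselves 66 lay above the median of all genes, with a median of 0.00. Within 2-fold were 78 of the 80, the exceptions being Rps27 and Rps16, which read 951 FPKM at 24 h and 300.1 FPKM at 0 h (1.66). Ribosomal protein genes have many pseudogene copies, which can share their reads.

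Purine and pyrimidine enzymes took the same side as the biogenesis factors. Of 21 measured genes for nucleotide and polyamine synthesis, 17 lay below the median of all genes, and Amd1 alone passed 2-fold. Gart, which catalyses several purine steps, read 98.8 FPKM at 24 h and 155 FPKM at 0 h (-0.64), and Cad, which starts pyrimidine synthesis, 30.3 FPKM at 24 h and 45.4 FPKM at 0 h (-0.57). Oaz1, the antizyme that limits polyamine synthesis, was at the higher end (0.54).

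Of the 23 measured enzymes and transporters of glycolysis 22 lay above the median of all genes. Their median log2 ratio was 0.25, and none passed 2-fold in the deposited values, whereas Pklr did under TPM scaling and with the median gene set to no change. Pklr, the pyruvate kinase of red cells and liver, read 76.2 FPKM at 24 h and 38.9 FPKM at 0 h (0.95), while Pkm, its counterpart in most tissues, read 1433 FPKM at 24 h and 1493 FPKM at 0 h (-0.06). Eno3 was the lowest (-0.20). Of the 77 respiratory chain genes 67 lay above the median of all genes as well, with a list median of 0.03. Cox7a1 was the highest (0.94, and past 2-fold under both of those scalings) and Sdhb the lowest (-0.27).

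Few genes that clear organelles and protein late in maturation passed 2-fold. Of 40 autophagy and mitophagy genes 33 lay above the median of all genes and 1 was past 2-fold, Atg4d, a processing protease, with 9.56 FPKM at 24 h and 4.01 FPKM at 0 h (1.08); the median was 0.15. Bnip3, a mitophagy receptor, read 270 FPKM at 24 h and 166 FPKM at 0 h (0.70). Of 21 ubiquitin and enucleation genes, Ube2l6, an E2 enzyme, read 20.1 FPKM at 24 h and 4.09 FPKM at 0 h (2.05), and Trim10, a RING protein of erythroid cells, 22.9 FPKM at 24 h and 8.80 FPKM at 0 h (1.29). None of 19 lysosome genes, 9 BCL2 family genes or 37 proteasome subunits passed 2-fold in the deposited values, and 30 of the 37 subunits lay above the median of all genes. Bcl2l1, which encodes the survival factor BCL-XL of erythroblasts, read 4.14 FPKM at 24 h and 1.73 FPKM at 0 h (0.91). It passed 2-fold under TPM scaling (1.13) and with the median gene set to no change (1.02).

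Of 9 estrogen receptor targets known from other tissues 2 were measured and neither passed 2-fold in the deposited values. Rara did (-1.16) under equal sums without small RNA and predicted loci, a setting in which the added 1 also weighs less. Listed at 0 in both libraries were 6 of the 9, which need not mean silence. The 21 measured genes of the HRI and ATF4 stress response, by which erythroblasts match globin synthesis to heme, also stayed within 2-fold. Eif2ak1, the heme-regulated kinase HRI, read 17.5 FPKM at 24 h and 10.6 FPKM at 0 h (0.67), and Atf4 111 FPKM at 24 h and 151 FPKM at 0 h (-0.44). Of 19 cholesterol enzymes 1 was past 2-fold, Idi1, an isomerase of the isoprenoid pathway, with 140 FPKM at 24 h and 62.0 FPKM at 0 h (1.16). Of 124 measured solute carriers 6 were higher and 2 lower, beside 1.86% and 1.06% of all measured genes. Slc4a1 was the highest of them, and Slc7a3, an arginine and lysine carrier, the lowest with 3.47 FPKM at 24 h and 8.81 FPKM at 0 h (-1.14).

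**Figure D4:**
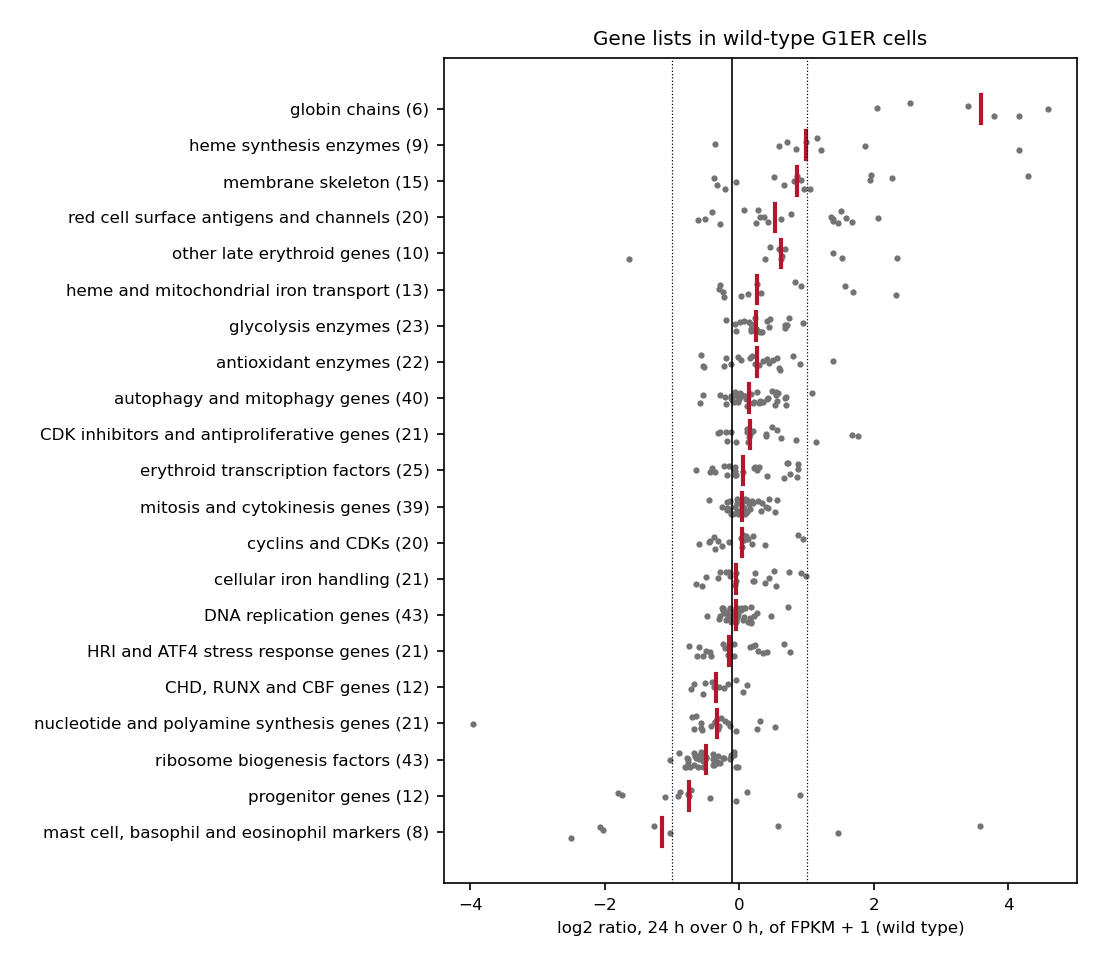
Each grey point is 1 measured gene of a list in wild-type cells, placed by its log2 ratio of FPKM + 1 at 24 h over 0 h; red bars are list medians, the solid line is the median of all 8964 measured genes, the dotted lines mark 2-fold, and the number measured follows each name. Globin, heme and membrane genes reach far to the right, ribosome biogenesis factors lie mostly left of the solid line (39 of 43), and genes of mitosis and cytokinesis mostly right of it (31 of 39).

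Some higher genes were neighbours on the chromosome. In 10 places consecutive measured genes lay past 2-fold in the same direction, by RefSeq gene order on GRCm38.p6. Over all measured genes 1.86% were higher and 1.06% lower, and how many such places these shares alone would give was not computed. The annotated spans overlap for Pigq and Nhlrc4, for St3gal4 and 4930581F22Rik, and for Mns1 and Tex9, the last pair being lower. The alpha globin locus was one of the 10 places, at chr11:32283672-32297310. On chromosome 15, Csf2rb2, Csf2rb, Tst and Mpst followed one another in chr15:78282507-78414015. Mpst and Tst are adjacent sulfurtransferase genes, and they read 60.8 FPKM at 24 h and 17.2 FPKM at 0 h (Mpst, 1.76), and 4.36 FPKM at 24 h and 0.41 FPKM at 0 h (Tst, 1.92). Prg2 and Prg3 lie side by side in chr2:84980461-84996559. Ache and Ufsp1, 203 bases apart on chromosome 5, were both higher, as were Pdia2 and Arhgdig, 49 bases apart on chromosome 17. Whether the counting used strand is not given in the sources used here, so close or overlapping genes cannot be fully told apart.

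The longest such run held 8 genes in chr12:87514316-88321762, and it was singled out after its values were seen. Its members are Gm8300, Gm4027, Gm21319, BB287469, Gm2016, Gm2022, Gm5662 and Gm5039, which RefSeq lists as protein-coding genes except Gm5039, a transcribed pseudogene. Their summed level was 309.5 FPKM at 24 h and 87.4 FPKM at 0 h in Chd7-/- cells, and 421 FPKM at 24 h and 132 FPKM at 0 h in wild-type cells. In wild type, Gm5662 was the most abundant with 113 FPKM at 24 h and 38.4 FPKM at 0 h (log2 ratio 1.53), and Gm4027 had the largest ratio, with 71.7 FPKM at 24 h and 15.9 FPKM at 0 h (2.10). The measured genes on either side, Snw1 and Slirp, differed little (0.09 and -0.08).

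A pair of promoters from this run is shown because they match almost wholly. The windows are chr12:87618659-87618958 for Gm4027 and chr12:87816327-87816626 for BB287469, both on the plus strand of GRCm38.p6 (RefSeq), 5′ to 3′. The Gm4027 window lies inside the annotated gene, whose span begins at 87617797, whereas the span of BB287469 begins within its window, at 87816577. Set against each other with a shift of 41 bases, they are identical at 258 of 259 bases, and the capital in each marks the position that differs. The Gm21319 window was 52.5% identical to that of Gm4027 and 47.3% to that of BB287469, and the other 5 genes were not compared. Reads from genes that match can be shared, so the values of this run may not be separate measurements.
Gm4027: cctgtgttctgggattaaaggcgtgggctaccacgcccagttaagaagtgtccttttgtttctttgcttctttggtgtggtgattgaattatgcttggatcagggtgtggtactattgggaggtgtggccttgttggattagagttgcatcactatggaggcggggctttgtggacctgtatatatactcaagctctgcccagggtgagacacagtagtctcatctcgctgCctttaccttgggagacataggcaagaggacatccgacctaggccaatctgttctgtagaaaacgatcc
BB287469: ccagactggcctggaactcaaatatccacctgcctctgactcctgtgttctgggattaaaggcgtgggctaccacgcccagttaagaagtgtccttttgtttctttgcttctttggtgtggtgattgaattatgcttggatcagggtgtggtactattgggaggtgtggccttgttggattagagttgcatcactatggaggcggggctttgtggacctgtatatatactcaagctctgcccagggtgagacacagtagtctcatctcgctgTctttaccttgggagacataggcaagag

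The letters of the promoters were compared between the groups. Windows were found in RefSeq for 107 of the higher genes, 59 of the lower genes and 6560 measured genes in all. Hbb-b1, Hbb-b2, Slc4a1, Csf2rb, Prg2 and Car1, among others, had no window, so the shares below leave them out. A GATA hexamer (the letters AGATAA and also AGATAG, as well as TGATAA and also TGATAG, on either strand) stood in 34 of 107 higher genes (31.8%), in 15 of 59 lower genes (25.4%) and in 17.6% of all windows. CCACCC on either strand stood in 52 of 107 higher genes (48.6%), in 27 of 59 lower genes (45.8%) and in 34.5% of all windows. Both together occurred in 16.8% of the higher, 6.78% of the lower and 5.47% of all windows. Of the 28 genes at least 4-fold higher, small RNA and predicted loci left out, 17 had a window, and of these 7 held a GATA hexamer and 12 held CCACCC. Hba-a1 and Hba-a2, whose windows match, each enter both of these counts. Base composition moved with the groups, since CG steps made up 5.35% of positions in the median higher window, 6.02% in the median lower window and 7.36% over all, and its part in these shares was not tested. The Gata2 window, chr6:88193641-88193940, held neither group of letters.

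The Chd7-/- cells give the same contrast in libraries that the wild-type values do not use. Of the 141 higher genes, 126 were also at least 2-fold higher at 24 h in Chd7-/- cells, where 3.38% of all measured genes were, and 140 had the same sign there. Of the 80 lower genes, 62 were also at least 2-fold lower, against 3.64% of all measured genes, and 77 had the same sign. Over all measured genes 80.7% had the same sign in both lines. Under TPM scaling 67.9% of all measured genes did, and the sign was shared by 141 of the 141 higher and 65 of the 80 lower genes. The log2 ratio was farther from 0 in Chd7-/- than in wild-type cells, on the wild-type side, in 107 of the 141 higher genes and in 56 of the 80 lower genes. With the median gene of each line set to no change these counts were 108 and 56, and under TPM scaling 132 and 13, where the median log2 ratio of all measured genes was 0.83 in Chd7-/- cells and 0.11 in wild type. Hbb-b1 was nearly equal in both lines (4.63 in Chd7-/- and 4.59 in wild type), whereas Alas2 (5.10 and 4.16), Slc4a1 (5.08 and 4.29) and Gata2 (-2.82 and -1.81) were larger in Chd7-/- cells. With 1 library for each condition, the difference between the lines was not tested.

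**Figure D5:**
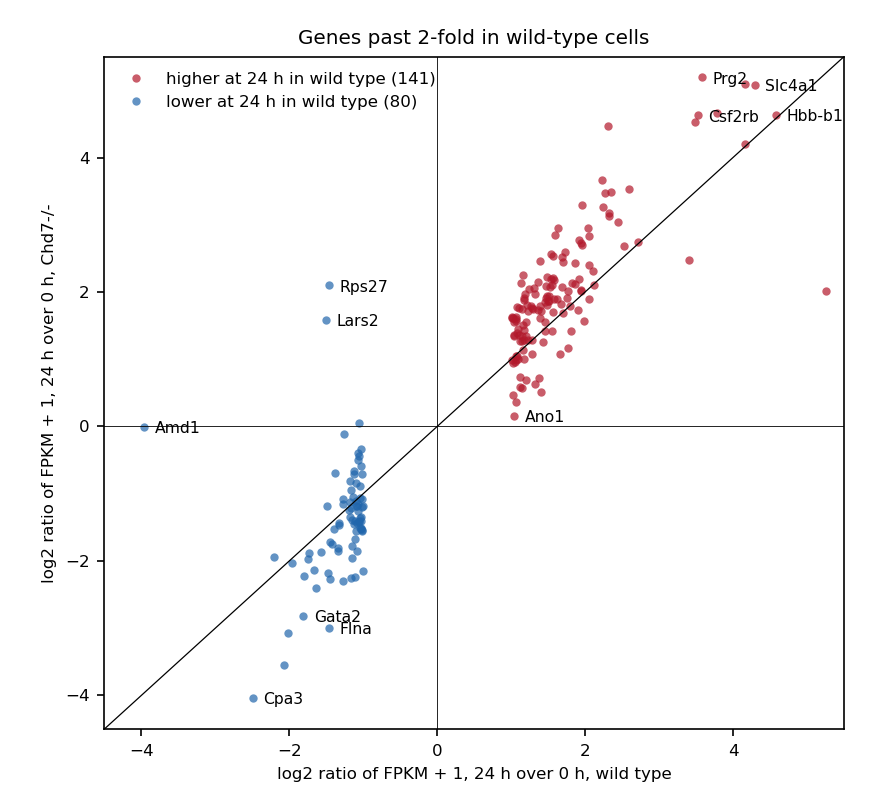
Each point is 1 gene past 2-fold in wild-type cells, small RNA and predicted loci left out, with its log2 ratio of FPKM + 1 at 24 h over 0 h in wild type (horizontal) and in Chd7-/- cells (vertical); the line marks equal ratios, and Hist1h4n, at 10.92 in wild type, lies outside the axes. Most red points lie above the line and most blue points below it, and Rps27 and Lars2 stand apart with opposite signs.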

How the data were processed

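Ribosome-depleted total RNA (Ribo-Zero Gold) of 4 G1ER cultures was made into ScriptSeq libraries, per the labels' protocols. The authors deposited 1 table of FPKM values per gene. FastQC, cutadapt, TopHat2 (2.0.11), Cufflinks (2.2.1) and the GRCm38/mm10 build are named in the submitters' processing notes, and the strand setting of the counting is not given in the sources used here. From that table, 1 stray second header line was dropped, genes averaging 1 FPKM or more across all 4 libraries were kept, and log2((FPKM + 1) at 24 h / (FPKM + 1) at 0 h) was counted past 2-fold in Python 3 with pandas. With 1 library a condition there was no test within wild type. A time effect over both lines with the line as a block was fitted with limma 3.58.1 (R 4.3.3), a choice made after seeing the data.

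The genes, the 52 lists and the tests were chosen with earlier results of these data known. Named genes are the 15 most higher and 15 most lower whose higher library read 5 FPKM or more (small RNA, predicted and replication-dependent histone loci left out), Hbb-b1, Alas2 and Gata2, and, for each list, up to 4 members past 2-fold at either end, or otherwise the ends, and its most abundant members. Other genes named were chosen for their role or after their values were seen. Depth was estimated from the FPKM steps of low genes with transcript lengths from GENCODE. In the 24 h library 52.4% of 84 low values, and in the 0 h library 58.7% of 92, fell within 5% of a whole number, so depth is approximate. By the 95% counting interval it gives, which covers counting error only, all 136 higher and all 79 lower genes with a known length differed beyond counting error. They were chosen by their ratio in these same libraries, so this was largely set in advance. The interval does not cover differences between cultures or errors of read assignment. Gene positions (93.8% of measured genes matched) and promoters come from RefSeq, GRCm38.p6. Promoter windows span 250 bases before to 50 after the start. Some genes that the rule for named genes would give are not reported here.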

Additional observations from a re-analysis of the deposited data

How the results depend on the processing

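A fit chosen after seeing the data took the line as a replicate block, with 1 residual degree of freedom, and tested what both lines share, not wild type alone. By limma with Benjamini-Hochberg adjustment, 708 genes were higher and 1448 lower past 0.05, and 121 and 16 under TPM. Among genes past 2-fold in wild type, 150 of 167 higher and 83 of 95 lower passed that block fit, beside 708 and 1448 of all 8964 tested. Under TPM, with the genes of the deposited scale, 114 of 269 and 10 of 49 did. The fit includes the wild-type libraries that chose these genes, so a high share passing is in part built in. The 114 listed or named genes past 2-fold kept their direction in 1106 of 1106 values under the 10 settings for single genes. This outcome was set in advance and is no check of these genes. Filters and pseudocounts cannot turn a sign, and under the scalings the median log2 ratio stayed between -0.172 and 0.107. Of 57 named genes within 2-fold, 7 took the other sign in 14 of 566 values: Tal1, Eno3, Fbl, Pkm, Eef1a1 and Slirp were above 0 under TPM, and Ccnb1 was below 0 (-0.03) under equal sums without small RNA and predicted loci. The count of higher genes, 167, was 95 with a pseudocount of 5, 270 under TPM scaling, 412 at 1.5-fold and 45 at 4-fold. The count of lower genes, 95, was 180 with a pseudocount of 0.1, 32 with a pseudocount of 5, 63 with a mean of at least 5 FPKM, 48 under TPM scaling, 151 under equal sums without small RNA and predicted loci, 58 with the median gene set to no change, 595 at 1.5-fold and 10 at 4-fold. The median log2 ratio, -0.109, was -0.122 and -0.073 with pseudocounts of 0.1 and 5, -0.053 with no filter, 0.107 under TPM, -0.172 under equal sums without small RNA and predicted loci, 0.0 when centred and -0.043 with upper-quartile scaling. At a pseudocount of 5 the higher genes numbered 3 of the membrane skeleton, 3 of cytokine signalling, 1 antiproliferative gene and 3 solute carriers, and the lower ones 1 progenitor gene and 3 mast cell markers. At a mean of at least 5 FPKM these were 3 higher in cytokine signalling, 3 solute carriers, 1 lower progenitor gene and 3 lower mast cell markers. TPM scaling gave 5 higher genes of heme and iron transport, 9 of the membrane skeleton and 10 solute carriers. Both equal-sum settings also lessen the weight of the pseudocount, so their counts do not show scaling alone. The BCL2 family median against all genes turned to -0.043 at a mean of at least 5 FPKM, where fewer genes are tested. Against all genes, the mast cell list's median (-1.04) was -0.01 with no filter, -0.53 and -1.34 with pseudocounts of 5 and 0.1, and -1.92 when a mean of 5 FPKM was asked for; the globin median (3.71) was 2.34 with no filter. Of 490 list medians, 15 moved, these among them; the cause was not tested. Genes below 1 FPKM in 1 library (24 higher, 12 lower) rest on few fragments.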

Other observations

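The genes that follow are outside the lists, were picked with their values known and stand for no group. St3gal4 and St3gal2, which cap glycans with sialic acid, were higher: St3gal4 read 50.1 FPKM at 24 h and 16.8 FPKM at 0 h (log2 ratio 1.52), and St3gal2 19.4 FPKM at 24 h and 8.94 FPKM at 0 h (1.04). Chsy1, which makes chondroitin chains, read 14.5 FPKM at 24 h and 4.55 FPKM at 0 h (1.49). St8sia4, which makes polysialic acid, read 2.40 FPKM at 24 h and 7.64 FPKM at 0 h (-1.35). Cmah, which makes a hydroxylated sialic acid in mice, read 9.12 FPKM at 24 h and 20.8 FPKM at 0 h (-1.10), and Ugcg, which starts glycosphingolipids, 30.8 FPKM at 24 h and 76.1 FPKM at 0 h (-1.28).

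Further single genes, chosen in the same way, encode factors of early signalling. Jun read 3.29 FPKM at 24 h and 0.15 FPKM at 0 h (1.90), and Dusp1, a phosphatase that turns off MAP kinases, 2.59 FPKM at 24 h and 0.40 FPKM at 0 h (1.36). Egr1 read 3.05 FPKM at 24 h and 7.51 FPKM at 0 h (-1.07), and its corepressor Nab2 3.80 FPKM at 24 h and 12.1 FPKM at 0 h (-1.45). In Chd7-/- cells the log2 ratio of Egr1 was -0.40 and that of Nab2 -2.27.

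Replication-dependent histones, whose messages lack poly(A) tails and are kept by ribosome depletion, were measured for 62 genes. Their median log2 ratio was 0.27, 61 of 62 lay above the median of all genes, and 3 were at least 2-fold higher: Hist2h4 at 175 FPKM at 24 h and 85.5 FPKM at 0 h, Hist1h2ap at 37.5 FPKM at 24 h and listed at 0.00 FPKM at 0 h, and Hist1h4n at 1942 FPKM at 24 h and 0.00 FPKM at 0 h. Hist1h4n was at 0 in both Chd7-/- libraries. Of the 59 measured chaperones none passed 2-fold in the deposited values. Dnajc12 did (-1.17) under equal sums without small RNA and predicted loci, a setting in which the added 1 also weighs less. Hspd1, the mitochondrial chaperonin, read 353 FPKM at 24 h and 529 FPKM at 0 h (-0.58). Rows of small RNA swung far more than those of messages, for example Snord104, at 9235 FPKM at 24 h and listed at 0 at 0 h.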
